A study of Mus musculus with 12 samples.

Results

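Gas6, Pros1, Axl, Mertk and Tyro3 encode the TAM system: a pair of secreted ligands and the 3 receptor tyrosine kinases they bind. These 5 genes were chosen by name, out of 34745 genes in the deposited table, as 1 ligand and receptor family, after the levels of all genes in every group had already been analysed. The choice was made with Gas6 results in view, so its levels and fold changes below are a description and no independent evidence. RNA was measured in neural stem cells (NSCs) cultured from the hippocampus of wild type C57BL/6 mice. There were 4 libraries at passage 2 (P2), 4 at passage 10 after culture with phosphate-buffered saline from passage 2 on (P10 PBS), and 4 at passage 10 after culture over the same passages with small extracellular vesicles (ESC-sEVs, from embryonic stem cells; P10 EV), an equal volume of PBS being the control. All cultures had B27 supplement, EGF, bFGF and heparin, so every group is a growth factor culture and not tissue. The labels give no age of the mice and do not say whether replicate numbers stand for separate animals; libraries of equal number share a culture code in their names across the 3 groups. The p-values measure the spread between these samples, which may be technical.

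Gas6 (growth arrest-specific 6) and Pros1 (protein S) carry a domain of vitamin K-dependent gamma-carboxyglutamate, the Gla domain, that binds phosphatidylserine on apoptotic cells and membranes, and a C-terminal part that binds the receptors. Gas6 is a ligand of all TAM receptors, whereas protein S is known as a ligand of Tyro3 and Mertk and as a cofactor of anticoagulant protein C. In the brain the receptors are best known for engulfment of dying cells by microglia and astrocytes and for survival signalling, and in hippocampal neural stem cells they are known to affect proliferation and survival.

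The promoters of the ligands are shown because 1 of these genes, Gas6, was called lower at passage 10 and the other was not. Each sequence runs from 250 bases before to 50 bases after the start site in RefSeq (GRCm38.p6), read on the strand of the gene, chr8:13494486-13494785 on the minus strand for Gas6 and chr16:62854057-62854356 on the plus strand for Pros1. Capitals mark GGGCGG on either strand, the letters of a GC box.
Gas6: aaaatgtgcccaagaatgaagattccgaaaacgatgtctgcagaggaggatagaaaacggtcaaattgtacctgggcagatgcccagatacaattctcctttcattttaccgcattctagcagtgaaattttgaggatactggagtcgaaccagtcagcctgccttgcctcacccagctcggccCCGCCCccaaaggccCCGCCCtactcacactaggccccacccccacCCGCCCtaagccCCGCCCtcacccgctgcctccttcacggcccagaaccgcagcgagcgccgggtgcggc
Pros1: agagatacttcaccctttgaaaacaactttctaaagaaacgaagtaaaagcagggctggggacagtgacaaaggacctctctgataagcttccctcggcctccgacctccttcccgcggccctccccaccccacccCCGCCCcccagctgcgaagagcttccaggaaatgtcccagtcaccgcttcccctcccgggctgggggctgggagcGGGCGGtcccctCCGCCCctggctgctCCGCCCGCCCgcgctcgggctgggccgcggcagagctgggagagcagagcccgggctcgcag
The Gas6 promoter held 4 GC boxes, at 66, 51, 20 and 8 bases before the start site counted to the first base of the match, and 5.49% of the 32851 mouse promoters in the same table held at least as many. The Pros1 promoter held 5, of which 2 overlap, and 2.71% of promoters held at least as many. The same letters occurred 2 times in the Axl promoter, 4 times in that of Mertk and 6 times in that of Tyro3, with overlapping matches counted, while 35.7% of all promoters held at least 1. CCAAT, searched on both strands, was in none of the 5 windows and in 37.4% of all promoters. The title of the study names SMADs and MYT1, and 2 more short strings were searched on both strands for that reason. CAGAC, the core of a SMAD-binding element, occurred 1 time in the Gas6 window and 2 times in that of Axl, and 49.6% of all promoters held it, whereas AAAGTTT, a core bound by MYT1, was in none of the 5 windows and in 4.74% of promoters. CANNTG, the E box, occurred 1 time each for Gas6 and Pros1, and 72.3% of promoters held it. CpG counts were 17 for Gas6, 21 for Pros1, 6 for Axl, 14 for Mertk and 31 for Tyro3. These are matches of letters in a window, and promoter activity was not measured.

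Total counts per library lay between 10736538 and 16807647, and all 5 genes passed the filter on low counts that left 16058 genes tested. The NSC markers, a list of 12 genes with Sox2 and Nes, were read in every library, with a summed level of 5740 to 7670 CPM (the count scaled to the size of its library). Tyrobp, a marker of microglia, had 0 reads in all libraries and Cx3cr1 had at most 1. Itgam, another such marker, has 2 entries in the deposited table, and the 1 used here had 0 reads. Cd68, P2ry12 and Csf1r had reads in all 12 libraries, at 400, 136 and 88 in total. Macrophage-lineage cells are known to carry Axl and Mertk. The summed level of the 12 microglia markers, with 1 entry of Itgam, was 2.45 to 5.32 CPM. The 8 endothelial markers summed to 3.41 to 8.99 CPM. Of the fibroblast and mural markers, Cspg4, which oligodendrocyte precursors also express, held 49566 reads over the 12 libraries. Acta2 held 660, Tagln 390 and Col1a1 256, each with reads in all 12, and Lum held none. In 4 libraries (P2 replicates 1 and 2, P10 PBS replicate 1 and P10 EV replicate 1) Alb, the albumin transcript of liver, lay at 16.3, 21.5, 16.5 and 17.2 CPM, whereas no other library exceeded 0.145 CPM. Fold changes, shares and the likeness list were recomputed without these 4 libraries.

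Gas6 (ENSMUSG00000031451, chr8:13465374-13494535, minus strand, mouse build GRCm38) was highest at P2 and lowest at P10 PBS. In FPKM (fragments scaled by gene length and library size) its level at P2 was 33.6, 41.2, 33.0 and 41.0 in replicates 1 to 4. At P10 PBS it was 13.4, 17.3, 9.84 and 10.0 FPKM, and at P10 EV it was 15.9, 16.5, 19.5 and 17.9 FPKM. Every P2 library lay above all 8 passage 10 libraries, whereas the passage 10 groups overlapped through replicate 2 of P10 PBS. The group means were 37.2 ± 4.49 FPKM at P2, 12.6 ± 3.52 in P10 PBS and 17.4 ± 1.58 in P10 EV (SD, n = 4 each). The values rest on 1051 to 1514 reads per library at P2, 275 to 541 at P10 PBS and 499 to 720 at P10 EV. In the fit of edgeR's quasi-likelihood test across all genes, Gas6 was 2.95-fold lower at P10 PBS than at P2 (log2 fold change -1.56 ± 0.18 SE, Benjamini-Hochberg adjusted p = 0.00243). It was 2.22-fold lower at P10 EV than at P2 (log2 fold change -1.15 ± 0.17 SE, edgeR adjusted p = 0.0162); leaving out P2 replicate 4 or P10 EV replicate 1, 2 or 4 moved this adjusted p to 0.0581, 0.0706, 0.0689 and 0.0822, in that order. Without the 4 libraries with Alb reads the values were -1.60 (edgeR adjusted p = 0.00477) and -1.10 (edgeR adjusted p = 0.012). In bulk RNA, fewer cells that express a gene and less RNA per cell cannot be told apart. Several markers of glial lineages were also lower on average at passage 10, and others were not. Of 13 oligodendrocyte lineage markers 11 were tested, with a median log2 fold change of -1.18 at P10 PBS over P2 and -1.06 at P10 EV over P2. Above 0 were 3 of the 11 at P10 PBS over P2 (Bcas1 at 0.84, Olig2 at 0.25 and Olig1 at 0.12) and 2 at P10 EV over P2. Sox10, which defines that lineage, was called at P10 PBS over P2 (-4.39, edgeR adjusted p = 0.0243) and Cnp, a myelin enzyme, at P10 EV over P2 (-1.59, edgeR adjusted p = 0.0433). The summed level of the list, led by Olig1 and Olig2, was 2120 to 3190 CPM at P2, 2220 to 2950 at P10 PBS and 2350 to 2680 at P10 EV. Of 10 astrocyte markers 9 were tested, with medians of -0.53 and -1.08 in the same comparisons, and the glutamate transporter Slc1a2 was called at P10 EV over P2 (-1.58, edgeR adjusted p = 0.0469). Above 0 were 2 of the 9 at P10 PBS over P2 (S100b at 0.95 and Aldoc at 0.29) and 0 at P10 EV over P2. The part of the glial markers in the Gas6 values was not tested. Within P2, Sox10 was 5.28, 108, 119 and 55.1 CPM and Gfap 1.35, 18.8, 346 and 44.9 CPM in replicates 1 to 4, where Gas6 was 87.1, 111, 88.9 and 105 CPM. Both comparisons with P2 share the P2 libraries, and P10 EV against P10 PBS shares the P10 PBS libraries.

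Between the passage 10 groups Gas6 did not pass the test. Its log2 fold change, P10 EV over P10 PBS, was 0.41 ± 0.17 SE with a 95% interval from 0.03 to 0.78 (unadjusted p = 0.0347, edgeR adjusted p = 0.666). P10 EV was the higher library in 3 of 4 replicate numbers, the exception being number 2. Over 20 other ways of fitting, this log2 fold change lay between 0.30 and 0.58 and never passed the threshold.

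**Figure D1:**
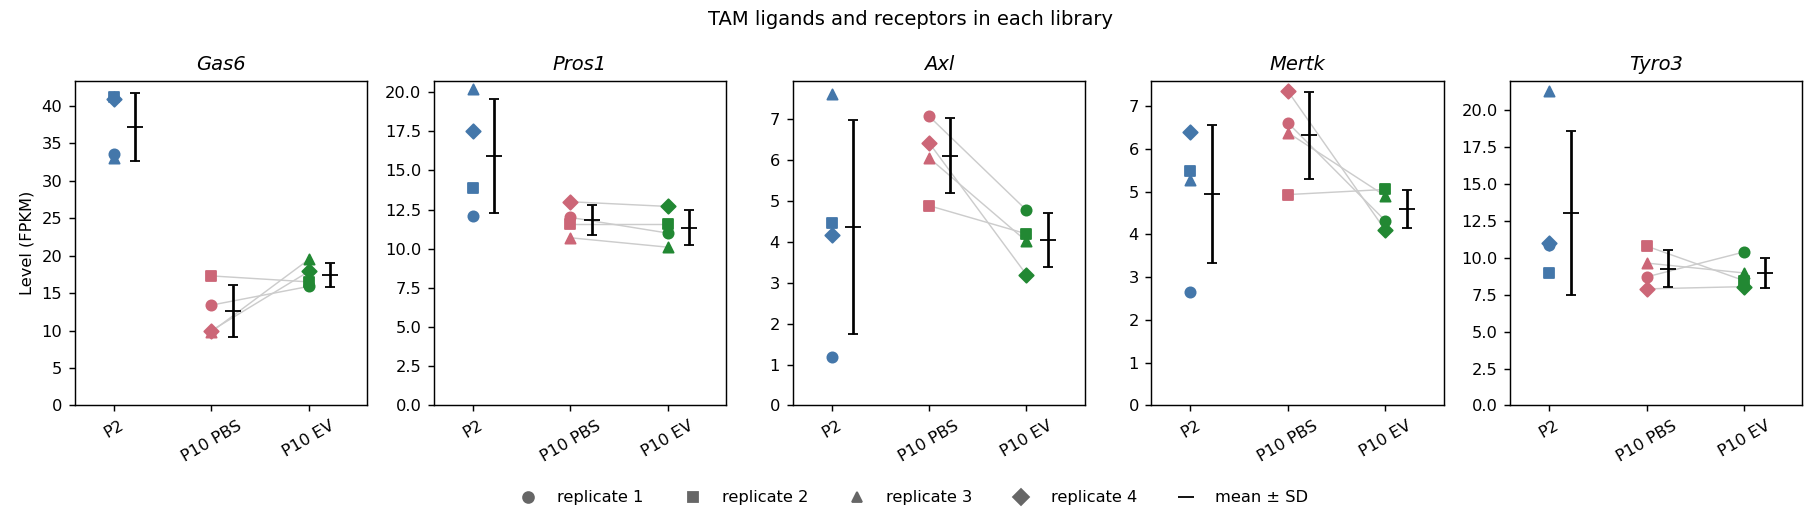
Level in FPKM of the 5 TAM genes in each of the 12 libraries, by group; symbols are replicate numbers, grey lines join equal numbers of the passage 10 groups, and black bars are the mean ± SD (n = 4). Each panel has its own axis from 0. Gas6 lies at 33.0 to 41.2 FPKM at P2 and at 9.84 to 19.5 FPKM in the passage 10 libraries; Axl and Tyro3 spread most within P2.

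In the deposited coordinates, Gas6 overlaps no other gene of the table. In GENCODE M21, an annotation of GRCm38, its 3′ end shares 3100 bases with Tmem255b on the opposite strand, and the sources used here do not say whether counting used the strand. Tmem255b, whose function in these cells is not well known, had 47, 283, 258 and 103 reads at P2, 42 to 59 at P10 PBS and 83 to 173 at P10 EV. Its highest count, 283, came from the library in which Gas6 had 1514 reads.

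Pros1 (ENSMUSG00000022912, chr16:62854307-62929346, plus strand), the other ligand, did not pass the test in any comparison. Its level was 12.1, 13.9, 20.2 and 17.5 FPKM at P2, 12, 11.6, 10.7 and 13.0 FPKM at P10 PBS, and 11, 11.6, 10.1 and 12.7 FPKM at P10 EV. Replicates 3 and 4 of P2 were high, replicate 1 of P2 lay among the passage 10 libraries, and the passage 10 groups overlapped almost fully. The group means were 15.9 ± 3.65, 11.8 ± 0.978 and 11.4 ± 1.10 FPKM (SD, n = 4 each). In the edgeR fit the log2 fold change was -0.43 ± 0.16 SE at P10 PBS over P2 (adjusted p = 0.27), -0.54 ± 0.16 SE at P10 EV over P2 (adjusted p = 0.117) and -0.12 ± 0.16 SE at P10 EV over P10 PBS (adjusted p = 0.906; 95% interval -0.46 to 0.23). The values against P2 turned on single libraries: without P2 replicate 1 they were -0.53 (edgeR adjusted p = 0.0418) and -0.65 (edgeR adjusted p = 0.0119), and without P2 replicate 3 they were -0.27 (edgeR adjusted p = 0.59) and -0.40 (edgeR adjusted p = 0.278). Without the 4 libraries with Alb reads, 2 of which are at P2, they were -0.70 (edgeR adjusted p = 0.0219) and -0.77 (edgeR adjusted p = 0.0104). Protein S is made in liver, and the part of the liver transcripts in these values was not tested.

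Gas6 held a smaller part of the ligand RNA in every P10 PBS library than in any P2 library. Its share of the summed FPKM of Gas6 and Pros1 was 73.6%, 74.8%, 62.0% and 70.1% at P2. It was 52.7%, 59.8%, 48.0% and 43.4% at P10 PBS and 59.1%, 58.7%, 65.9% and 58.5% at P10 EV. The P10 EV group overlapped both others. The summed level of the ligands was 53.2 ± 5.41 FPKM in P2, 24.5 ± 3.61 in P10 PBS and 28.8 ± 1.63 in P10 EV (SD, n = 4 each). Divided by the summed FPKM of the receptors, it gave 2.57 ± 0.693, 1.13 ± 0.198 and 1.65 ± 0.253 (SD, n = 4 each). Without the 4 libraries with Alb reads the mean share of Gas6 was 66.0%, 50.4% and 61.0%, and the mean ratio of ligands to receptors was 2.14, 1.13 and 1.74 (n = 2, 3 and 3). These ratios are of RNA per length and depend on the gene lengths used, and protein was not measured.

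Axl (ENSMUSG00000002602, chr7:25757273-25788705, minus strand), the receptor that binds Gas6 most tightly, varied most within P2. Its level was 1.19, 4.47, 7.62 and 4.18 FPKM at P2, 7.08, 4.89, 6.06 and 6.43 FPKM at P10 PBS, and 4.78, 4.20, 4.02 and 3.20 FPKM at P10 EV. Replicate 1 of P2 was the lowest of all 12 libraries and replicate 3 the highest, and every P10 EV library lay below every P10 PBS library. The group means were 4.37 ± 2.63, 6.12 ± 0.919 and 4.05 ± 0.651 FPKM (SD, n = 4 each). P10 EV was lower than P10 PBS in 4 of 4 replicate numbers, yet the log2 fold change of -0.66 ± 0.39 SE did not pass edgeR's test (unadjusted p = 0.115, adjusted p = 0.771; 95% interval -1.50 to 0.18). That error takes in the spread of the P2 libraries. Fitted on the 8 libraries of the 2 passage 10 groups alone, edgeR's SE was 0.16 and the unadjusted p was 0.00238, with an adjusted p of 0.184. Against P2 the log2 fold change was 0.48 ± 0.39 SE at P10 PBS (edgeR adjusted p = 0.603) and -0.17 ± 0.39 SE at P10 EV (edgeR adjusted p = 0.835). Neither direction held throughout. P10 EV over P2 was 0.25 without P2 replicate 3, -0.48 without P2 replicate 1 and -0.70 without the 4 libraries with Alb reads. P10 PBS over P2 was 0.92, 0.18 and -0.05 under the same omissions.

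Astrocyte markers went with Axl in some features and not in others. The summed level of 10 such markers was 1300, 2480, 5620 and 3270 CPM in P2 replicates 1 to 4, where Axl was 10.2, 39.6, 67.6 and 35.2 CPM. Both were lowest in replicate 1 and highest in replicate 3, but replicates 2 and 4 stood in opposite order. Gfap, the defining astrocyte filament, was likewise lowest in replicate 1 and highest in replicate 3, and its mean was 103 CPM in P2, 11.5 in P10 PBS and 9.52 in P10 EV. At P10 PBS over P2 the fitted log2 fold change of Axl was 0.48, whereas the median of the 9 astrocyte markers tested was -0.53. The astrocyte markers summed to 1690 to 2720 CPM at P10 PBS and 1290 to 1560 CPM at P10 EV. These groups did not overlap, nor did they for Axl and for 7.58% of all genes. Taken singly, 3 of the 9 markers tested did not overlap here (S100b, Slc1a2 and Gja1), and the others, Gfap among them, did. Sox9 went the other way in this comparison (0.29). The part of the astrocyte markers in the Axl values was not tested.

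Mertk (ENSMUSG00000014361, chr2:128698956-128802894, plus strand), the receptor best known for engulfment, was 2.64, 5.48, 5.27 and 6.40 FPKM at P2. It was 6.61, 4.93, 6.38 and 7.35 FPKM at P10 PBS and 4.32, 5.05, 4.90 and 4.10 FPKM at P10 EV. Replicate 1 of P2 was again the lowest library, and replicate 2 of P10 PBS was the only one of its group within the P10 EV range. The group means were 4.95 ± 1.61, 6.32 ± 1.01 and 4.59 ± 0.455 FPKM (SD, n = 4 each). The log2 fold change at P10 EV over P10 PBS was -0.52 ± 0.23 SE and did not pass edgeR's test (unadjusted p = 0.0409, adjusted p = 0.675; 95% interval -1.02 to -0.03), with P10 EV lower in 3 of 4 replicate numbers. It was 0.36 ± 0.23 SE at P10 PBS over P2 (edgeR adjusted p = 0.51) and -0.17 ± 0.23 SE at P10 EV over P2 (edgeR adjusted p = 0.721). Without P2 replicate 1 the values against P2 were 0.15 (edgeR adjusted p = 0.575) and -0.37 (edgeR adjusted p = 0.114). Without the 4 libraries with Alb reads they were 0.08 (edgeR adjusted p = 0.815) and -0.37 (edgeR adjusted p = 0.205), and P10 EV over P10 PBS was -0.45 (edgeR adjusted p = 0.569). An antisense gene within Mertk, Gm14011, had 1 to 6 reads per library.

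Tyro3 (ENSMUSG00000027298, chr2:119797733-119818104, plus strand), the TAM receptor best known in neurons, had the highest FPKM of the 3 receptors in all 12 libraries. Its level was 10.9, 8.97, 21.3 and 11 FPKM at P2, 8.71, 10.8, 9.65 and 7.90 FPKM at P10 PBS, and 10.4, 8.46, 8.98 and 8.05 FPKM at P10 EV. Replicate 3 of P2 stood well above the other 11 libraries, and the groups overlapped otherwise. The group means were 13.0 ± 5.60, 9.26 ± 1.25 and 8.96 ± 1.01 FPKM (SD, n = 4 each). In the edgeR fit the log2 fold change was -0.50 ± 0.23 SE at P10 PBS over P2 (adjusted p = 0.375), -0.60 ± 0.24 SE at P10 EV over P2 (adjusted p = 0.198) and -0.10 ± 0.23 SE at P10 EV over P10 PBS (adjusted p = 0.948; 95% interval -0.61 to 0.41). The values against P2 turned on single libraries. Without P2 replicate 3 they were -0.13 at P10 PBS (edgeR adjusted p = 0.815) and -0.25 at P10 EV (edgeR adjusted p = 0.488), whereas without the 4 libraries with Alb reads, which leaves 2 libraries at P2, replicate 3 among them, they were -0.80 (edgeR adjusted p = 0.0698) and -0.99 (edgeR adjusted p = 0.027).

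Counted over the family, 1 of 5 genes, Gas6, was called lower at P10 PBS than at P2, beside 0.928% of all genes called in either direction. The same 1 of 5 was called lower at P10 EV than at P2, beside 0.585% of all genes. Between P10 EV and P10 PBS 0 of 5 were called, beside 0% of all genes in the edgeR fit, in which 1163 genes had an unadjusted p under 0.05; DESeq2 called 65 genes. The libraries of the 2 groups did not overlap for 1 of 5 genes at P10 PBS and P2 (Gas6; 5.7% of all genes), for 1 of 5 at P10 EV and P10 PBS (Axl; 7.58% of all genes) and for 1 of 5 at P10 EV and P2 (Gas6; 9.02% of all genes). Since the choice of the family used these contrasts, nothing is read from the shares.

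**Figure D2:**
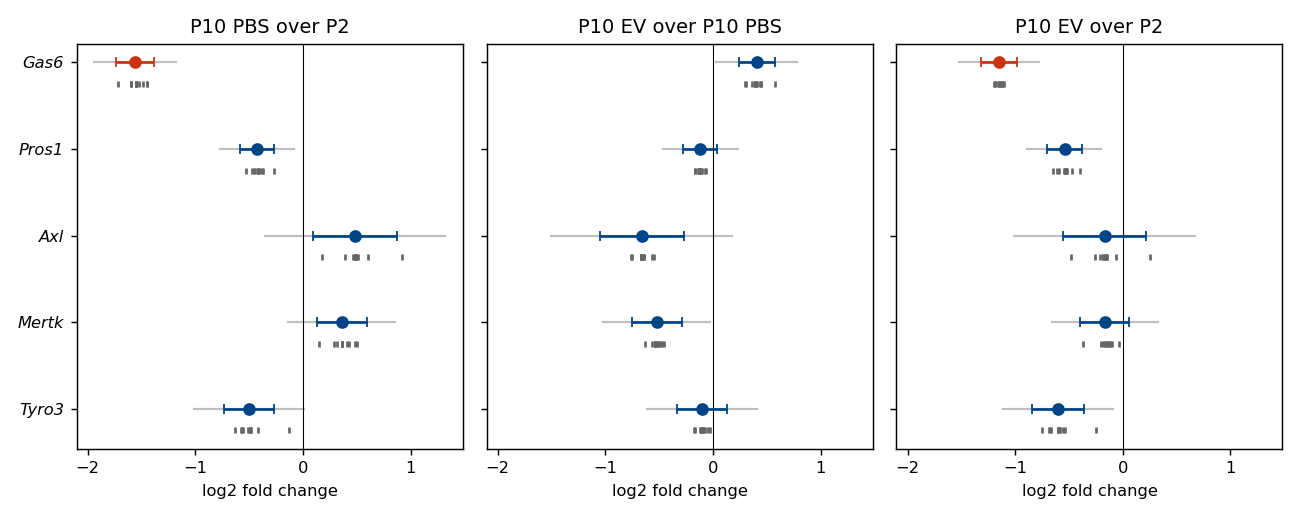
Log2 fold change of each TAM gene in the 3 comparisons (point, edgeR), with its SE (capped bar) and 95% interval (grey line); red points passed an adjusted p under 0.05, and the small ticks below each point are the values with 1 library left out. Gas6 lies at -1.56 and -1.15 in the comparisons with P2 and at 0.41 between the passage 10 groups; Axl has the widest intervals.

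FPKM is scaled per length, so setting levels of different genes side by side depends on the lengths used. The deposited counts and FPKM imply 8547 bases for Axl, 6106 for Mertk, 9246 for Tyro3, 2593 for Gas6 and 4582 for Pros1. In the order of the receptors by FPKM, Tyro3 was first in each group. Its share of the summed receptor FPKM was 58.6% ± 12 at P2, 42.8% ± 7.05 in P10 PBS and 51.0% ± 2.48 in P10 EV (SD, n = 4 each). Mertk had 23.0% ± 7.41, 29.0% ± 4.09 and 26.2% ± 2.77, and Axl had 18.4% ± 7.08, 28.1% ± 3.40 and 22.9% ± 1.61 (SD, n = 4 each). Over all 12 libraries the ratio of Axl to Mertk, neighbours in this order, spanned 1 in each group. It ran from 0.452 to 1.45 at P2, from 0.876 to 1.07 at P10 PBS and from 0.781 to 1.11 at P10 EV. In the 8 libraries without Alb reads the ratio was 0.653 to 1.45, 0.876 to 0.993 and 0.781 to 0.832, so that Axl lay below Mertk throughout both passage 10 groups. The mean share of Tyro3 in these 8 libraries was 56.6%, 44.2% and 50.2%. The summed receptor level was 14.7 to 34.2 FPKM at P2, 20.6 to 22.4 at P10 PBS and 15.4 to 19.5 at P10 EV, and the passage 10 groups did not overlap. The share of Tyro3 was highest, at 74.0%, in P2 replicate 1, where Axl and Mertk were lowest.

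**Figure D3:**
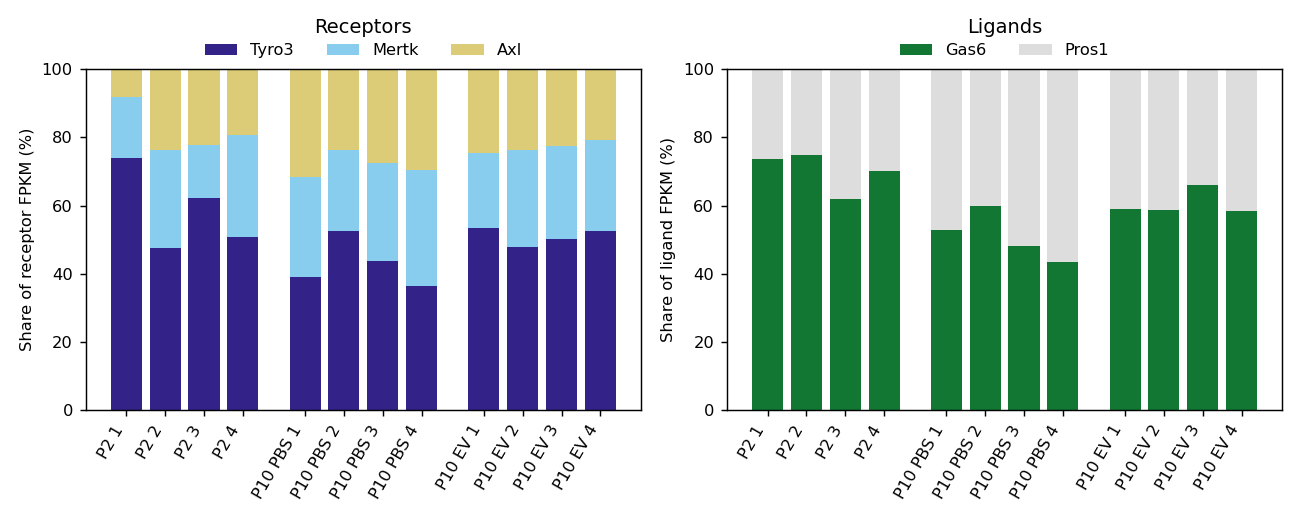
Left, share of Tyro3, Mertk and Axl in the summed receptor FPKM of each library; right, share of Gas6 and Pros1 in the summed ligand FPKM, both in percent, for the 12 libraries in 3 groups. Tyro3 holds 36.4% to 74.0% of receptor FPKM, and Gas6 holds 62.0% to 74.8% of ligand FPKM at P2 and 43.4% to 59.8% at P10 PBS.

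The genes nearest to Gas6 in their profile over the 12 libraries were Emx2, Igf2bp2, Acot11, Stk32a and Gnao1. Nearness is the root mean square difference of log2 CPM, each gene centred on its own mean. It was taken over 10763 genes with a mean of at least 5 CPM, leaving out gene model symbols (Gm and Rik). The difference was 0.281, 0.287, 0.338, 0.34 and 0.347, where the spread of Gas6 itself was 0.702. Emx2, a homeobox gene of the developing hippocampus, had 25.1 ± 2.73 CPM at P2, 8.98 ± 2.05 in P10 PBS and 11 ± 1.25 in P10 EV (SD, n = 4 each). Igf2bp2, an RNA-binding protein of the IMP family, had 21.2 ± 1.98, 7.78 ± 1.78 and 11.9 ± 4.22 CPM (SD, n = 4 each). Acot11, an acyl-CoA thioesterase, had 34.5 ± 2.90, 10.5 ± 2.75 and 9.31 ± 1.10 CPM (SD, n = 4 each) and lay lower at P10 EV than at P10 PBS on average, the opposite of Gas6. Stk32a, a serine/threonine kinase, had 18.7 ± 7.42, 6.78 ± 2.22 and 10.1 ± 0.838 CPM, and Gnao1, a G protein alpha subunit of neurons, had 64.1 ± 18.5, 29.4 ± 10.0 and 27.6 ± 3.06 CPM (SD, n = 4 each). All 5 were picked for this likeness, so their values are a description. The first 5 places depend on the 4 libraries with Alb reads: over the other 8 libraries Stk32a ranked 1, whereas Emx2, Gnao1, Acot11 and Igf2bp2 ranked 12, 15, 19 and 21 of 10763. The difference from Gas6 over these 8 libraries was 0.151 for Stk32a and 0.285, 0.29, 0.307 and 0.308 for the others, in that order.

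**Figure D4:**
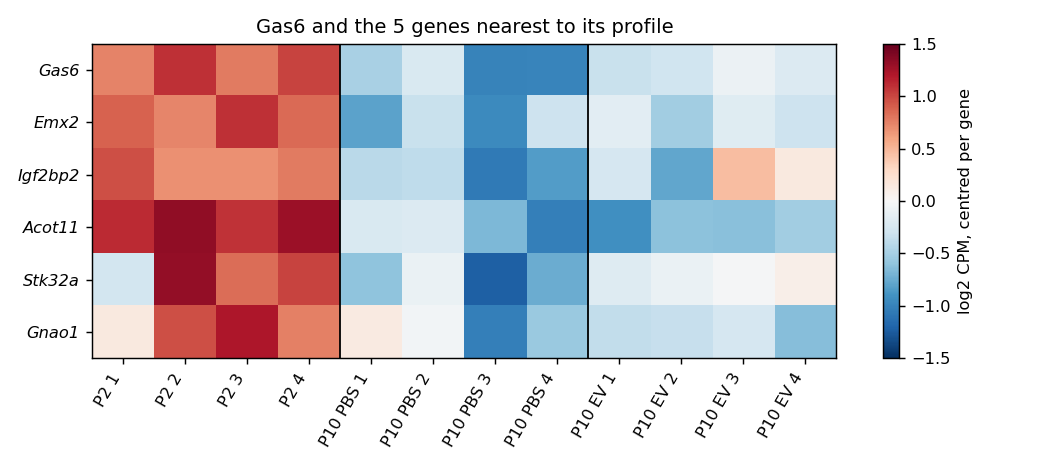
Log2 CPM of Gas6 and of the 5 genes nearest to its profile, centred on the mean of each gene over 12 libraries (colour), by library and group. All 4 P2 libraries of Gas6, Emx2, Igf2bp2 and Acot11 are above their mean; Stk32a is below it in P2 replicate 1.

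The partners of the TAM system were followed in 7 lists with 80 genes, of which 62 passed the filter and 18 did not. At P10 PBS over P2, 0 of the 62 rose and 1 fell, with a median log2 fold change of -0.01 beside -0.008 over all genes. That is 1.61% of the partners, beside 0.928% of all genes called, and the gene passed the filter only through P2, where it is high. At P10 EV over P10 PBS and at P10 EV over P2, none was called, beside 0% and 0.585% of all genes, and the medians were -0.06 in both, beside 0.009 and -0.011 over all genes. The count changed with the libraries in the fit. Without P2 replicate 1, 4 of 63 were called at P10 PBS over P2 (6.35%, beside 7.47% of all genes) and 10 of 63 at P10 EV over P2 (15.9%, beside 17.5%). Without the 4 libraries with Alb reads it was 11 of 63 (17.5%, beside 14.3%) and 14 of 63 (22.2%, beside 20.6%). At P10 EV over P2, 3 of 62 were called without P2 replicate 2 (4.84%, beside 0.864%) and 1 of 63 without P10 PBS replicate 2 (1.59%, beside 0.549%). DESeq2 called 4 of 77 at P10 PBS over P2 (5.19%, beside 2.99%) and 7 of 77 at P10 EV over P2 (9.09%, beside 5.32%). Apart from the gene called at P10 PBS over P2, the lowest fitted values were those of Mfge8 in that comparison and Megf10 at P10 EV over P2. Mfge8, a phosphatidylserine bridge to integrins, was at -1.31 and -1.25 against P2 (edgeR adjusted p = 0.147 and 0.127), and the engulfment receptor Megf10 at -1.01 and -1.42 (edgeR adjusted p = 0.319 and 0.121). Both spread widely at P2, at 172 ± 138 and 86.8 ± 63 CPM (SD, n = 4 each), and their libraries overlapped in both comparisons. Libraries did not overlap for 4 of 62 partners at P10 PBS and P2 (6.45%, beside 5.7% of all genes). It was 4 at P10 EV and P10 PBS (6.45%, beside 7.58%) and 12 at P10 EV and P2 (19.4%, beside 9.02%).

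The gene that fell was Rhbdf2 (iRhom2), which carries the protease ADAM17, known to shed Mertk and Axl from the cell surface, to its site of action. It had 16, 17, 26 and 12 reads at P2, 0, 0, 0 and 1 at P10 PBS, and 7, 3, 2 and 8 at P10 EV. The groups did not overlap in any pair, with P10 EV between the others. Pooled, 71 reads at P2 against 1 at P10 PBS gave a CPM ratio of 68.8 with a 95% counting interval from 11.9 to 2750, and 20 at P10 EV against 1 gave 17.5, from 2.8 to 726; the intervals cover counting error only. Rhbdf2 passed the filter on low counts only through its P2 libraries, at 0.989 to 2.2 CPM, beside at most 0.497 CPM at passage 10. It was thus tested through the group where it is high, and its call is a description. In the edgeR fit the fall from P2 to P10 PBS passed the test (adjusted p = 0.00386), whereas P10 EV over P10 PBS (adjusted p = 0.399) and P10 EV over P2 (adjusted p = 0.0709) did not. The last comparison passed with DESeq2 (adjusted p = 0.0254), and in edgeR without P2 replicate 1 (adjusted p = 0.017) and without the 4 libraries with Alb reads (edgeR adjusted p = 0.0314). The other 4 genes of this list, the proteases Adam10 and Adam17, their inhibitor Timp3 and Rhbdf1, were not called in any comparison.

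Of the 7 genes of the vitamin K cycle and of propeptide processing, which make the Gla domains of Gas6 and Pros1, none was called. Calu, an inhibitor of the carboxylase, had 288 ± 110 CPM at P2, 239 ± 93.2 in P10 PBS and 188 ± 12.5 in P10 EV, and Vkorc1l1, a vitamin K epoxide reductase, had 65.7 ± 11, 77.1 ± 14.5 and 60.6 ± 14.3 CPM (SD, n = 4 each). Of 14 other Gla proteins 6 were tested and none was called; the transmembrane Gla proteins Prrg1 and Prrg3 were the most abundant. Prrg3 had 25.4 ± 10.8, 11.9 ± 7.97 and 13.0 ± 1.33 CPM (SD, n = 4 each) and missed the threshold at P10 PBS over P2 (edgeR adjusted p = 0.303).

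Among genes that expose phosphatidylserine or return it to the inner leaflet, 9 of 10 were tested and none was called. Bsg (basigin), a partner of the scramblase Xkr8, had 273 ± 84.9 CPM at P2, 274 ± 56.1 in P10 PBS and 201 ± 40.4 in P10 EV, and the flippase Atp11a had 194 ± 42.6, 212 ± 24.1 and 224 ± 33.9 CPM (SD, n = 4 each). Of 21 genes of other recognition and engulfment routes 15 were tested and none was called. The engulfment receptor Lrp1 was the most abundant, at 1170 ± 444, 976 ± 106 and 1170 ± 104 CPM, followed by Calr (calreticulin) at 479 ± 120, 759 ± 164 and 650 ± 70.1 CPM (SD, n = 4 each). All 4 Calr levels at P10 PBS lay above those at P2, but the change did not pass edgeR's test (adjusted p = 0.145).

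Of the other known Mertk ligands, Tub had 109 ± 64.1 CPM at P2, 159 ± 42.6 in P10 PBS and 204 ± 27.3 in P10 EV (SD, n = 4 each), Lgals3 had under 1 CPM on average in each group, and Tulp1 did not pass the filter. Among 20 intracellular partners, 18 were tested and none was called in the edgeR fit. Pik3r1, a regulatory subunit of PI3 kinase, had 414 ± 61.7, 443 ± 27.5 and 518 ± 36.4 CPM (SD, n = 4 each). Cbl, a ubiquitin ligase that acts on Axl, had 303 ± 32.6, 350 ± 32.7 and 379 ± 25.8 CPM (SD, n = 4 each). At P10 EV and P2 the libraries did not overlap for 6 of the 18 (beside 9.02% of all genes). Pik3r1, Cbl, Ptpn11 and Ptk2 lay higher at P10 EV, and Shc1 and Src lower. Shc1 was at -0.77 there (edgeR adjusted p = 0.0545). The count was 1 of 18 at P10 PBS and P2 (beside 5.7%) and 2 at P10 EV and P10 PBS (beside 7.58%).

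**Figure D5:**
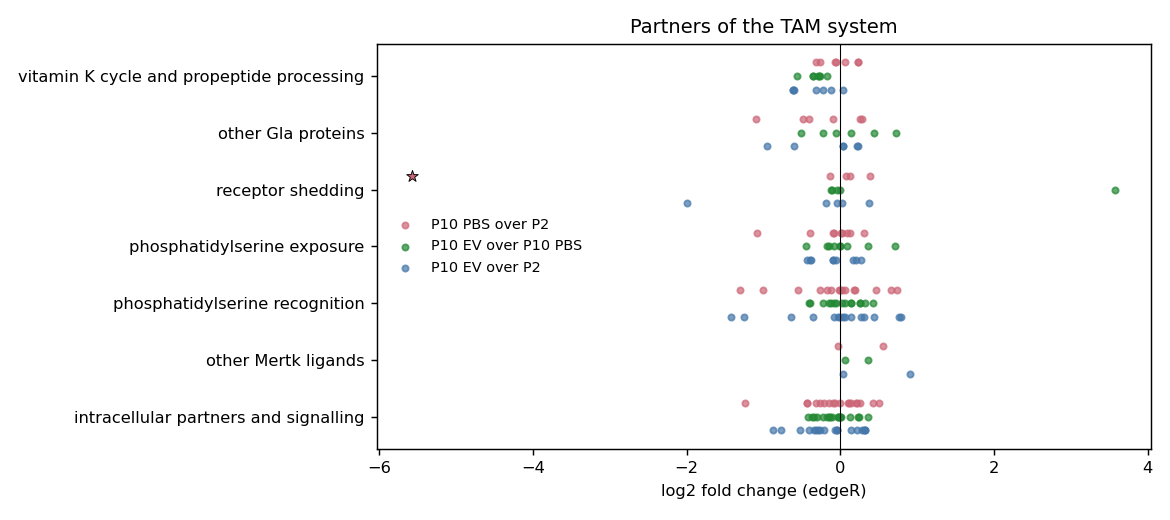
Log2 fold change (edgeR) of each tested gene of the 7 partner lists, in rows by list and in colour by comparison; the star marks the 1 gene called, Rhbdf2 at P10 PBS over P2, at a fitted value of -5.57 that rests on 1 read at P10 PBS. The other 61 partners lie between -1.42 (Megf10) and 0.90 (Tub) over the 3 comparisons, none of them called, and the lone point at 3.58 is Rhbdf2 at P10 EV over P10 PBS.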

How the data were processed

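Polyadenylated RNA was sequenced from paired-end TruSeq libraries, per the labels' protocols. The authors deposited raw counts per gene together with FPKM, in which those counts are divided by gene length and by library total. The submitters' processing notes list HISAT2 2.0.4 and StringTie 1.3.0 without a role; which program counted the reads, on which strand and against which build is not given in the sources used here, and coordinates are as deposited, matched to GRCm38. The 5 members, the gene lists and the tests were chosen with earlier results of these data known.

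Counts were analysed in R 4.3.3 with edgeR 4.0.16: genes were filtered by filterByExpr (minimum count 10, 16058 of 34745 genes kept), scaled by TMM, and fitted by the quasi-likelihood method with 1 mean per group over all 12 libraries (9 residual degrees of freedom). Benjamini-Hochberg adjustment covered all tested genes, and genes with an adjusted p below 0.05 were called. CPM uses the TMM-scaled totals, and centred log2 CPM a prior count of 2. The procedure was tried on simulated counts in which all genes had the same relative spread. The deposited counts do not, so that trial gives no error rate for these data. Shares and ratios were computed from FPKM. Named were the 5 members, the called genes of a partner list or else its 2 most abundant, and the 5 genes nearest to Gas6. Tmem255b, Gm14011, Mfge8, Megf10, Shc1, Src, Ptpn11, Ptk2 and single marker genes were chosen after their values were seen.

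Alternatives were DESeq2 1.42.0 and its size factors, limma 3.58.1 on log2(FPKM + 1) and log2(FPKM + 0.1), no filter, fits restricted to the 8 libraries compared, a replicate block, and leaving out each library in turn. Omission of the 4 libraries with Alb reads was added after seeing the data. Replicate numbers come from the labels' titles. In the library names, the same code prefix marks equal numbers in each group (NSC1, NSC4, NSC5 and NSC6), and the labels do not say whether it stands for an animal or a culture; the fit took the libraries as independent. Deviations from the group means correlated between libraries of the same number at 0.37, 0.148, 0.138 and 0.208 for P10 EV and P10 PBS. Every correlation was over 0.1, which was taken as pairing, yet only 3 of 4 P10 EV libraries correlated best with their own number. The correlations were 0.087 to 0.187 for P10 EV and P2 and -0.084 to 0.211 for P10 PBS and P2, which was not taken as pairing. Total counts were 10736538 to 16807647 per library, so counting error matters mainly for genes with few reads, such as Rhbdf2. A second deposited table was not used here.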

Additional observations from a re-analysis of the deposited data

Results flagged for a closer look

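Tyro3 in P2 replicate 3 lay far from the other libraries of its group, at 204 CPM against 85.8 to 101 CPM in the other 3; the gap was 0.875 of the range of the group. Of 15 groups of 4 libraries examined for the TAM genes this was 1, and chance marks about 1 in 20 groups. The same library had the highest level of the astrocyte markers, at a sum of 5620 CPM, and of Axl, at 67.6 CPM. Whether these are linked was not tested.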

How the results depend on the processing

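With 4 libraries per group, 20 alternatives were run, 12 of which leave out 1 library. Gas6 at P10 PBS over P2 was called in all 20, with log2 fold changes from -1.72 to -1.45, and at P10 EV over P2 in 16 of 20, from -1.20 to -1.05. Fitted with a replicate block, Gas6 was -1.57 (edgeR adjusted p = 0.00591), -1.14 (edgeR adjusted p = 0.0336) and, at P10 EV over P10 PBS, 0.43 (edgeR adjusted p = 0.657); the block changed no call of the 5 genes. The number of TAM genes called at P10 PBS over P2, 1, became 2 without the 4 libraries with Alb reads and was 1 to 2 with 1 library left out. At P10 EV over P2, also 1, it was 2 with DESeq2 (adding Pros1), 3 without the libraries with Alb reads (adding Pros1 and Tyro3) and 0 to 2 with 1 library left out. Between the passage 10 groups it was 0 in all 20. Axl changed direction at P10 EV over P2, from -0.17 to 0.06 and 0.14 with limma on log2(FPKM + 1) and log2(FPKM + 0.1) and to 0.25 without P2 replicate 3 (-0.48 to 0.25 with 1 library left out), and at P10 PBS over P2, from 0.48 to -0.05 without the libraries with Alb reads; the cause was not tested. Over all genes, the 149 called at P10 PBS over P2 became 583 with DESeq2, 38 on the 8 libraries alone, 2320 without the libraries with Alb reads and 41 to 1206 with 1 library left out. The 94 called at P10 EV over P2 became 912, 30, 3335 and 8 to 2821 under the same changes, and the 0 at P10 EV over P10 PBS became 65 with DESeq2, 2 on the 8 libraries alone and 0 to 1 with 1 library left out. The highest counts of 1206 and 2821 came without P2 replicate 1. Stk32a at P10 PBS over P2 (edgeR adjusted p = 0.044) passed in 6 of 20 alternatives, Igf2bp2 in 16, and Emx2 and Acot11 in 20. Gnao1 missed the threshold (edgeR adjusted p = 0.0638) and passed in 3 of 20. All of them were picked for their likeness to Gas6 in these libraries, so these counts are a description. Depth limits Rhbdf2, whose value at P10 PBS rests on 1 read.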
